A study of Bos taurus with 12 samples.

Results

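The interleukins and the chains of their receptors were represented by 39 of the 9155 genes named on a bovine expression array. They are all genes whose symbol begins with IL and a number, as given for probe sets that name a single gene, other than IL8, and they were covered by 54 of the 24016 probe sets. Each gene is described by its probe set with the largest standard deviation (SD) over the 12 arrays, and 11 of the genes had several to choose from. The signs of the differences between weeks take no part in this choice, but their size adds to the SD. Differences between cows add to it as well. Shares of all probe sets, given below as background, are over probe sets not chosen in this way.

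The arrays measured RNA from papillae, the projections of the rumen wall through which fermentation products are absorbed, in 4 dairy cows of the Holstein breed, with the ventral sac as the site. Each cow was sampled at week 0, on a diet high in forage that served as the control, and again under the grain challenge at its weeks 1 and 3, so that every week has 4 arrays. No other treatment is given in the labels, and no cow kept on forage throughout is among the samples, so that the diet and the passing of time cannot be told apart. The study set out to compare the means of the 3 weeks.

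Interleukins are secreted proteins by which leukocytes and epithelial cells signal to each other, and most act through receptors built of a binding chain and a signalling chain shared with other interleukins. Receptors of the interleukin 1 and 17 families signal through adaptor proteins to the transcription factor NF-kappaB, and most others through Janus kinases and STAT proteins, with feedback from SOCS proteins and CISH. The rumen is lined by a stratified squamous epithelium, and in such epithelia keratinocytes are known as both sources and targets of these signals.

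Values are log2 values from which the median of each probe set over the 12 arrays had been removed, so a value of 0 is that median. Differences between arrays can be read from them, but levels of different genes cannot be compared and the presence of a gene in the tissue cannot be judged. The same holds for cell type markers, so the labelled tissue could not be checked by their levels. In RNA from whole papillae, fewer cells of a type and less RNA per cell cannot be told apart. The number of arrays limits the precision.

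The array of week 1 of cow 1 stood apart from the others. Its median over all probe sets was -0.05, and 20 of the 39 genes had their lowest value on it. The array of week 1 of cow 2, with a median of 0.05, held the highest value of 12 genes. The arrays of week 0 of cow 1, week 1 of cow 1 and week 0 of cow 2 had hybridization controls of the array 0.42 to 0.67 above their median, against -0.28 to 0.02 on the other arrays. For some results below, the value without 1 or more of these arrays is given.

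Over the 12 arrays, 17 of the 39 genes were among the 40% of probe sets of lowest SD, and are called flat here. As each gene is described by its probe set of largest SD, this count is a description and is not set against other probe sets. The 17 genes spanned 0.0937 to 0.249 between their lowest and highest arrays. Of the 17, 16 were lowest on week 1 of cow 1 and 15 were highest on week 1 of cow 2 or of cow 4. They included IL6, an inducer of acute phase proteins, IL10, which restrains inflammation, IL15, which sustains lymphocytes, and the growth and differentiation factors of lymphocytes and eosinophils IL4, IL5 and IL21. The widest range belonged to IL33, with 2.01 on the log2 scale, followed by IL1A with 1.77 and IL22RA1 with 1.34.

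**Figure D1:**
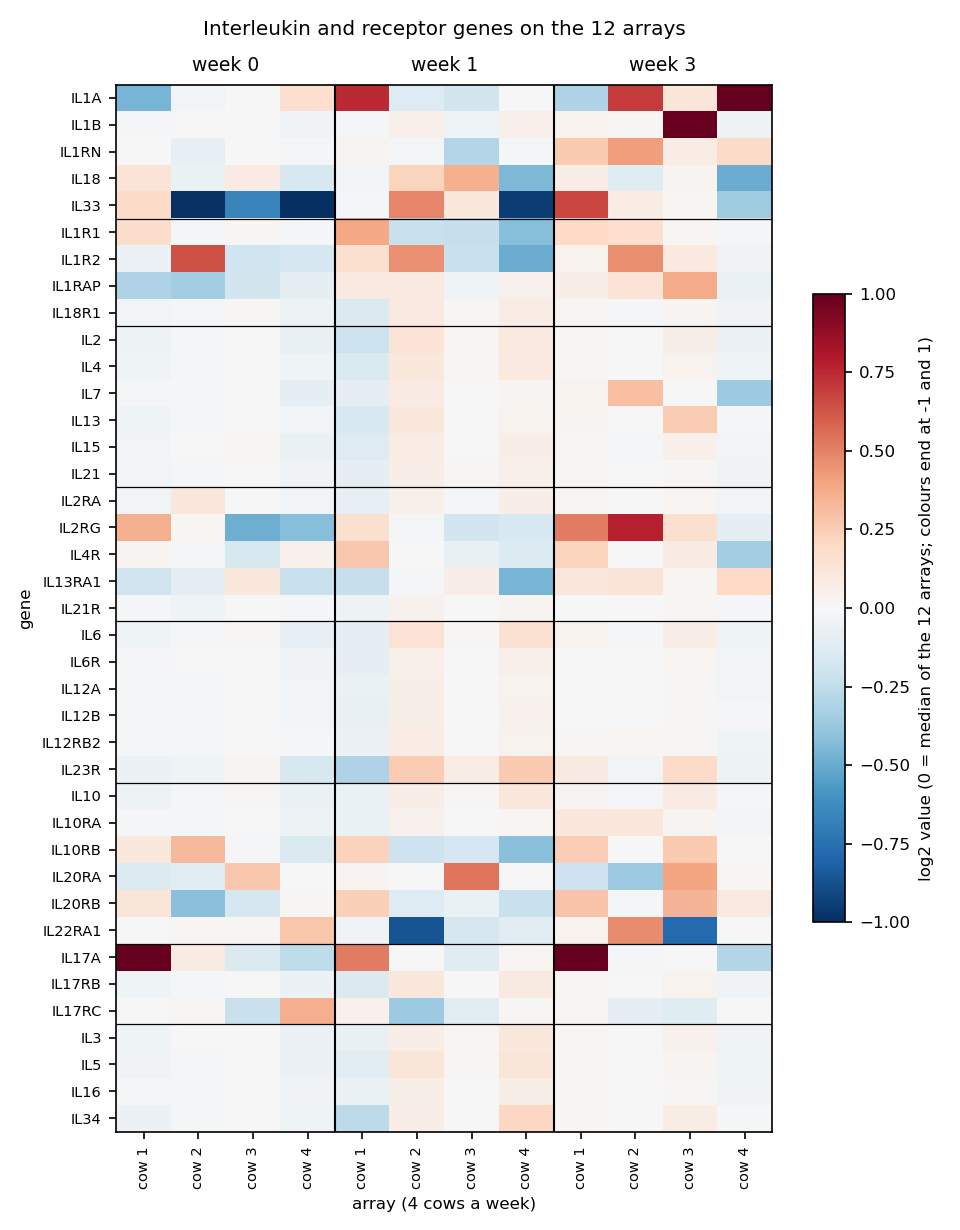
Log2 values of the 39 genes (rows, grouped by role) on the 12 arrays (columns, by week and cow), with 0 the median of a probe set over all arrays. IL33, IL1A, IL22RA1, IL17A, IL2RG, IL1R2 and IL1B, 7 genes, span over 1 log2 unit, while 17 genes stay within a range of 0.249.

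In no comparison of weeks did an interleukin or receptor gene pass an adjusted p under 0.05 in limma, and neither did any other probe set, so percent called was 0% of the 24016 in each of the 3 comparisons. At an unadjusted p under 0.05, week 1 differed from week 0 in 1 of the 39 genes, against 5.15% of all probe sets. Week 3 differed from week 0 in 2 genes, or 5.13%, against 3.88% of all probe sets. Week 3 differed from week 1 in 2 genes, against 4.88%. These shares lie near the background or below it. With the array of week 1 of cow 1 left out, 20 genes had an unadjusted p under 0.05 at week 1 against week 0, and so had 43.1% of all probe sets, still with 0 genes at an adjusted p under 0.05.

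With the cow as a block the unadjusted counts were 2 genes at week 1 against week 0 (7.61% of all probe sets), 5 at week 3 against week 0 (6.12%) and 6 at week 3 against week 1 (7.58%). The adjusted p still passed in 0 of the 39 genes in each comparison, and in 0.00833% of all probe sets for week 1 against week 0. The unadjusted counts at week 3 came to 12.8% and 15.4% of the genes, above the shares of all probe sets. Those shares are over probe sets not chosen by SD. A like background is the 9155 named genes, each also described by its probe set of largest SD. With the block, 464 of these were higher and 270 lower at week 3 against week 0, at an unadjusted p under 0.05. At week 3 against week 1, 585 were higher and 385 lower. In both comparisons these were larger shares of the named genes than the 6.12% and 7.58% of all probe sets. The 39 genes stood less far above this background. With the cow as a random block, the estimated correlation was 0.0256. The 3 counts over the 39 genes were then 1, 4 and 2, against 5.4%, 4.14% and 5.07% of all probe sets. Week 3 against week 1 thus lay near the background there. With the fixed block, all 5 genes were higher at week 3 than at week 0, as were 3.93% of all probe sets. Against week 1, 5 of the 6 were higher at week 3 (4.18% of all probe sets) and IL20RA was lower (3.4%). In the test over all 3 weeks, 2 genes had an unadjusted p under 0.05 and 5 with the block, against 5.01% and 8.24% of all probe sets, with 0 genes at an adjusted p under 0.05 in either (0% and 0.00416% of all probe sets).

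**Figure D2:**
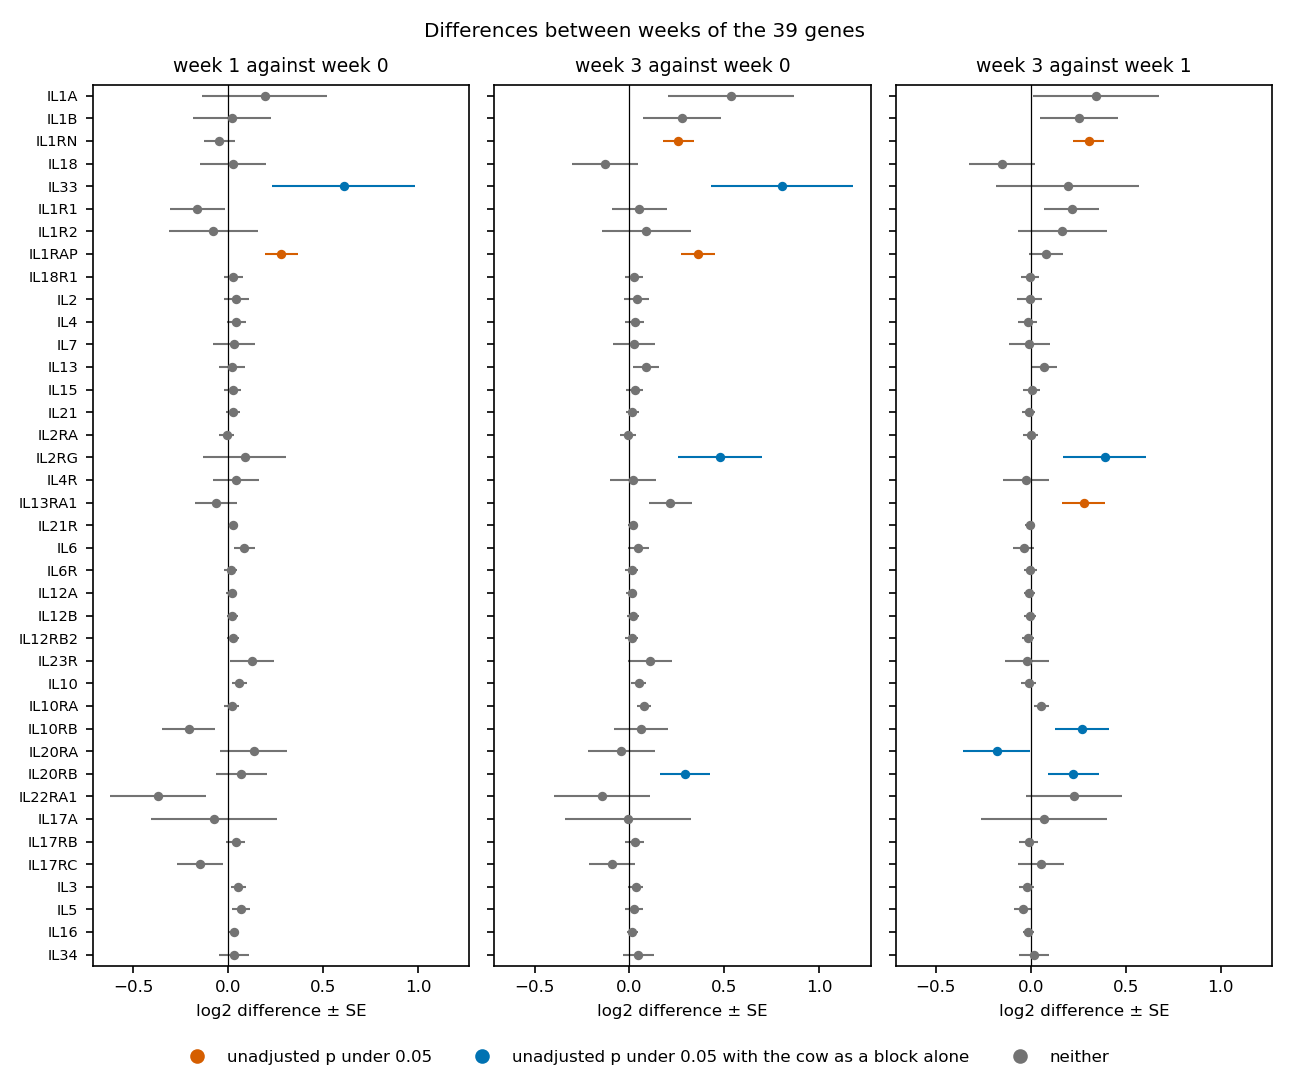
Log2 differences between weeks (horizontal axis) with the standard error of the limma fit for each of the 39 genes (vertical axis, grouped by role), 1 panel a comparison. The differences furthest to the right belong to IL33, IL1A and IL2RG at week 3 against week 0, with 0.80, 0.53 and 0.48, and the genes with an unadjusted p under 0.05 include IL1RAP and IL1RN.

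Among the groups of genes by role, the interleukin 1 family ligands had the largest median difference at week 3 against week 0. Of the 5 ligands, 4 were higher at week 3 than at week 0 and 1 was lower, and the median of the 5 differences was 0.28. Over all 39 genes the median difference was 0.03, and over all 9155 named genes it was 0.02. IL1A and IL1B are the agonists that start NF-kappaB signalling, IL1RN is the antagonist that occupies their receptor without signalling, IL18 induces interferon gamma and IL33 is a nuclear protein of epithelial and endothelial cells released on damage. Of 7 fibroblast markers, 6 also had a higher mean at week 3 than at week 0, and their median difference was 0.20. Their mean per array ranged from 0.07 to 0.38 at week 3, against -0.42 to 0.12 at week 0. Of the 7, 3 had an unadjusted p under 0.05 in limma (3.88% of all probe sets) and 0 an adjusted p under 0.05. Of 6 endothelial markers 3 were higher, with a median of -0.0082. The part of these cells in the values of the ligands was not tested.

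IL1RN, the antagonist, stood at 0.26, 0.42, 0.07 and 0.19 in cows 1 to 4 at week 3, against 0.01, -0.08, -0.01 and -0.01 at week 0. At week 1 it stood at 0.03, -0.01, -0.29 and -0.01. All 4 arrays of week 3 lay above all 8 arrays of the earlier weeks, and the single low array was week 1 of cow 3. The difference was 0.26 ± 0.08 (SE) at week 3 against week 0 (limma, adjusted p = 0.901) and 0.30 ± 0.08 at week 3 against week 1 (adjusted p = 0.670). Week 1 differed from week 0 by -0.05 ± 0.08. With the 3 arrays of high controls left out, IL1RN had an unadjusted p under 0.05 in limma only at week 3 against week 1. IL1RN was higher at week 3 than at week 1 in all 4 cows, by 0.20 to 0.43.

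Groups of 4 arrays without overlap, as in IL1RN, were found in 2 of the 39 genes at week 3 against week 0 (3.48% of all probe sets), in 1 at week 3 against week 1 (2.45%) and in 2 at week 1 against week 0 (2.69%). The others were IL1RAP at both weeks against week 0 and IL22RA1 at week 1.

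IL1RAP encodes the accessory chain that the receptors for interleukin 1 and interleukin 33 need to signal. At week 0 it stood at -0.31, -0.35, -0.19 and -0.10 in cows 1 to 4, at week 1 at 0.09, 0.09, -0.05 and 0.05, and at week 3 at 0.06, 0.14, 0.37 and -0.07. Every array under grain lay above every array on forage, and the least distance was that of cow 4 at week 3. The difference was 0.36 ± 0.09 at week 3 against week 0 (limma, adjusted p = 0.809, fold 1.28) and 0.28 ± 0.09 at week 1 against week 0 (adjusted p = 0.763). Week 3 differed from week 1 by 0.08 ± 0.09.

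These values come from 1 of 3 probe sets that name IL1RAP. The other probe sets differed by -0.06 and 0.05 at week 3 against week 0, and by 0.04 and 0.08 at week 1 against week 0. The mean of the 3 probe sets differed by 0.12 at week 3 and by 0.13 at week 1, both against week 0.

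IL33 had the largest difference of the 39 genes at both weeks against week 0, again from 1 of 3 probe sets. In cows 1 to 4 it stood at 0.19, -0.99, -0.67 and -1.34 at week 0, at -0.02, 0.48, 0.11 and -0.94 at week 1, and at 0.67, 0.07, 0.02 and -0.35 at week 3. Cow 4 was the lowest in every week and cow 1 was the highest at weeks 0 and 3, so the weeks overlapped although each cow was higher at week 3 than at week 0, by 0.48 to 1.06. The difference was 0.80 ± 0.38 at week 3 against week 0 (limma, adjusted p = 0.901), and with the cow as a block its unadjusted p was under 0.05 (adjusted p = 0.561). At week 1 against week 0 it was 0.61 ± 0.38 (adjusted p = 0.763, with the block 0.592), with cow 1 lower and the other 3 cows higher. That difference was 0.32 without cow 2, 0.40 without week 0 of cow 4 and 0.012 with array weights. The other 2 probe sets of IL33 differed by 0.09 and 0.0028 at week 3 against week 0, and the mean of all 3 by 0.30, and by 0.21 at week 1 against week 0.

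IL1A and IL1B were high on single arrays. IL1A stood at -0.31, 0.70, 0.12 and 1.30 in cows 1 to 4 at week 3, against -0.47, -0.03, -0.00 and 0.17 at week 0. At week 1 it was 0.74 in cow 1 and between -0.18 and 0.00 in the other cows, and its difference from week 0, 0.19 ± 0.33, was -0.019 with that array of cow 1 left out. All 4 cows were higher at week 3 than at week 0, by 0.12 to 1.14, but the weeks overlapped and the difference of 0.53 ± 0.33 had an adjusted p of 0.901 in limma. It was 0.25 without week 3 of cow 4 and 0.33 without cow 4. IL1B lay between -0.05 and 0.05 on 11 of the 12 arrays and at 1.07 in cow 3 at week 3, and its second probe set stood at 1.05 on that array. Its difference of 0.28 ± 0.21 at week 3 against week 0 (adjusted p = 0.901) was 0.01 with that array left out.

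IL18 was the ligand of the family with a lower mean at week 3, at 0.06, -0.12, 0.03 and -0.49 in cows 1 to 4, against 0.13, -0.06, 0.08 and -0.16 at week 0. It was lower in all 4 cows, by 0.05 to 0.33, and the only one of the 39 genes that was, against 4.63% of all probe sets. The difference was -0.13 ± 0.17 (limma, adjusted p = 0.901), and -0.0064 without week 3 of cow 4. Cow 4 was the lowest in all 3 weeks.

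**Figure D3:**
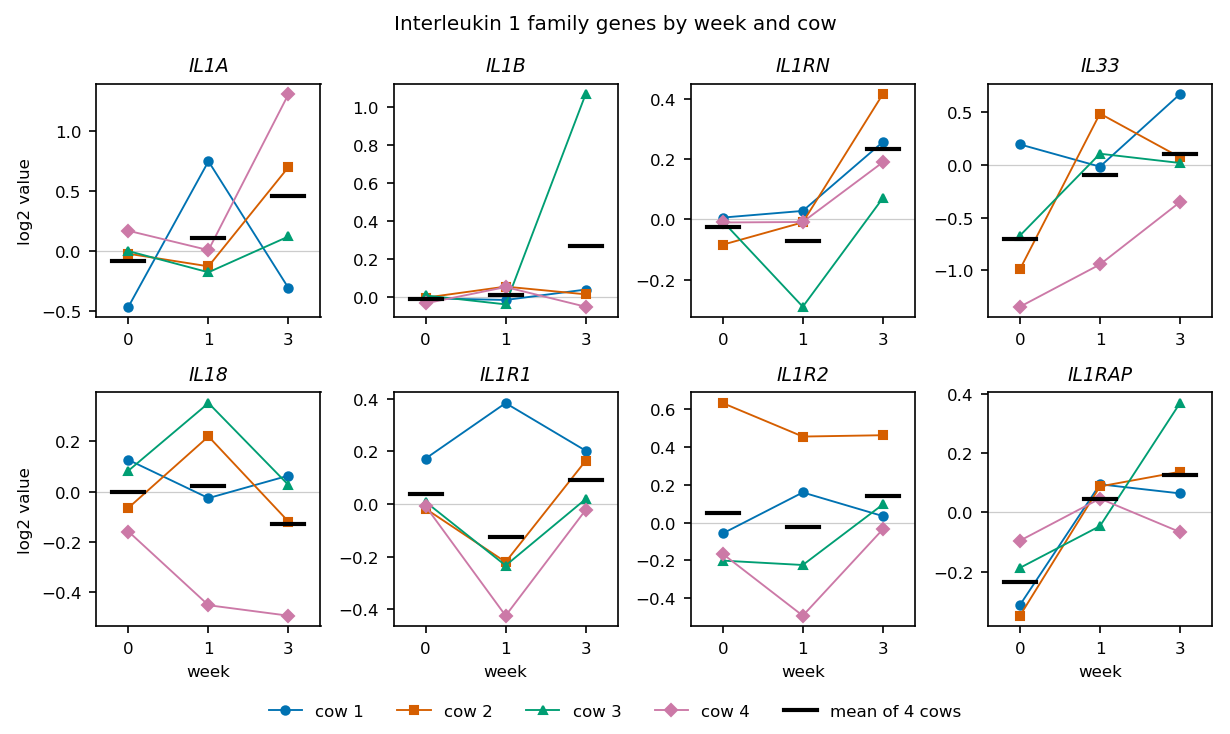
Log2 values of interleukin 1 family ligands and receptors (vertical axes, 1 panel a gene with its own scale) at weeks 0, 1 and 3 (horizontal axes), with a line for each of the 4 cows and a bar at the mean of a week. IL1RN lies highest at week 3 and IL1RAP lowest at week 0 without overlap, IL33 is higher at week 3 than at week 0 in each cow, and IL1B is high in cow 3 at week 3 alone.

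The binding chains of the family had smaller mean differences. IL1R1, the signalling receptor for IL1A and IL1B, stood at 0.38, -0.22, -0.23 and -0.42 in cows 1 to 4 at week 1, against 0.17, -0.02, 0.01 and -0.01 at week 0. Cow 1 was higher and the other 3 cows were lower, and the difference was -0.16 ± 0.15 (limma, adjusted p = 0.763). It was -0.33 with the array of week 1 of cow 1 left out. It was 0.05 ± 0.15 at week 3 against week 0. IL1R2, the decoy that binds interleukin 1 without signalling, differed by 0.09 ± 0.23 at week 3 and -0.08 ± 0.23 at week 1, both against week 0, and followed the cows, as described below.

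Among the receptors for lymphocyte growth factors, IL2RG, the common gamma chain of the receptors for IL2, IL4, IL7, IL15 and IL21, was chosen after its values were seen. It stood at 0.51, 0.78, 0.16 and -0.09 in cows 1 to 4 at week 3, against 0.36, 0.02, -0.49 and -0.43 at week 0. At week 1 it stood at 0.16, -0.02, -0.18 and -0.15. Cows 1 and 2 lay above cows 3 and 4 in each week, so the weeks overlapped, while every cow was highest at week 3. The difference was 0.48 ± 0.22 at week 3 against week 0 (limma, adjusted p = 0.901), and with the cow as a block its unadjusted p was under 0.05 (adjusted p = 0.504). Against week 1 it was 0.39 ± 0.22 (adjusted p = 0.999, with the block 0.464), and 0.24 without week 3 of cow 2. The difference from week 0 was 0.80 with the 3 arrays of high controls left out.

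IL2RG is a gene of leukocytes, and the leukocyte markers on the array are given beside it. Of 14 listed markers of monocytes, macrophages and dendritic cells 11 were measured, and 8 of them lay higher at week 3 than at week 0. The median difference was 0.13. Their mean per array ranged from -0.61 to 0.86 at week 3, against -0.98 to 1.03 at week 0. Of 14 markers of T and natural killer cells, all measured, 12 were higher at week 3, with a median difference of 0.02 and array means of -0.08 to 0.28, against -0.27 to 0.09 at week 0. In both lists 0 markers passed an adjusted p under 0.05 in limma, and at an unadjusted p under 0.05 there were 1 and 0 (3.88% of all probe sets). All 4 measured markers of B and plasma cells had a higher mean at week 3 than at week 0 (median difference 0.06), as had 4 of 7 of neutrophils (0.01) and 2 of 3 of mast cells (0.07), with 0 of them at an unadjusted p under 0.05.

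At week 3 against week 1, 8 of the 11 markers of monocytes, macrophages and dendritic cells were higher, with a median of 0.67. Their array means of -0.61 to 0.86 at week 3 stood against -0.72 to 0.23 at week 1. An unadjusted p under 0.05 was reached by 2 of the 11 in limma (4.88% of all probe sets) and by 5 with the cow as a block (7.58%). An adjusted p under 0.05 was reached by 0. Of the T and natural killer cell markers 4 of 14 had a higher mean at week 3 than at week 1 (median difference -0.0088), and so had 2 of 4, 4 of 7 and 2 of 3 of the B and plasma cell, neutrophil and mast cell markers. The part of these cells in the values of IL2RG was not tested.

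IL13RA1 pairs with IL4R to bind IL4 and IL13. It stood at 0.11, 0.13, 0.02 and 0.20 in cows 1 to 4 at week 3, against -0.23, -0.02, 0.07 and -0.47 at week 1. Cow 3 was the exception to the higher values of week 3, and the weeks overlapped through it. The difference was 0.28 ± 0.11 (limma, adjusted p = 0.962), 0.18 without week 1 of cow 4 and 0.15 without cow 4. Its other probe set differed by 0.10. Week 3 against week 0, a comparison given for this gene after its values were seen, differed by 0.22 ± 0.11 (adjusted p = 0.901). IL4R itself differed by 0.02 ± 0.12 at week 3 against week 0, with cow 4 lower by 0.39 and the other cows higher. All 6 ligands of this group, IL2, IL4, IL7, IL13, IL15 and IL21, had differences whose median was 0.03 at both weeks against week 0.

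Receptors of the interleukin 10 family include chains that keratinocytes carry. IL20RA and IL20RB form the receptor for IL19, IL20 and IL24, IL22RA1 binds IL22 together with IL10RB, and IL10RB also serves the receptor for IL10. These 4 genes were chosen after their values were seen. IL20RB stood at 0.29, -0.01, 0.34 and 0.10 in cows 1 to 4 at week 3, against 0.12, -0.42, -0.17 and 0.01 at week 0. Each cow was higher, by 0.09 to 0.50, and the weeks overlapped. The difference was 0.29 ± 0.13 (limma, adjusted p = 0.901), and the adjusted p with the cow as a block was 0.594. It was 0.19 without week 0 of cow 2.

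IL10RB stood at 0.24, -0.00, 0.26 and 0.00 in cows 1 to 4 at week 3, against 0.23, -0.21, -0.17 and -0.42 at week 1. Each cow was higher at week 3, cow 1 by 0.01 and the others by 0.21 to 0.43. The difference was 0.27 ± 0.14 (limma, adjusted p = 0.999, with the block 0.641), and 0.18 without week 1 of cow 4. Week 3 differed from week 0 by 0.06 ± 0.14.

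IL22RA1 was lower at week 1, with -0.03, -0.86, -0.17 and -0.11 in cows 1 to 4, against 0.00, 0.02, 0.01 and 0.27 at week 0. The weeks did not overlap, but the difference of -0.37 ± 0.25 (limma, adjusted p = 0.763) was largest in cow 2, and was -0.18 with that array of cow 2 left out. At week 3 the gene stood at 0.03, 0.47, -0.78 and -0.00, with cow 2 the highest and cow 3 the lowest. Beside these chains, IL10 itself differed by 0.06 ± 0.04 at week 1 and 0.05 ± 0.04 at week 3, both against week 0. IL20RA differed by -0.18 ± 0.18 at week 3 against week 1 (limma, adjusted p = 0.999, with the block 0.582). It was -0.048 without week 1 of cow 3, -0.072 without week 3 of cow 2, -0.12 without cow 2 and -0.32 without week 3 of cow 3.

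Keratinocyte markers had lower means under grain in the same arrays, and are given beside these chains. All 8 measured of 12 listed were lower at week 1 than at week 0. The median difference was -0.32, and at week 3, with 7 of 8 lower than at week 0, it was -0.24. Their mean per array ranged from -0.26 to 0.17 at week 1 and from -0.28 to -0.02 at week 3, against 0.17 to 0.42 at week 0. Of the 8, 4 had an unadjusted p under 0.05 in each comparison (5.15% and 3.88% of all probe sets), 5 and 4 with the cow as a block (7.61% and 6.12%), and 0 an adjusted p under 0.05 in limma. The part of the keratinocytes in the values of the receptor chains was not tested.

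**Figure D4:**
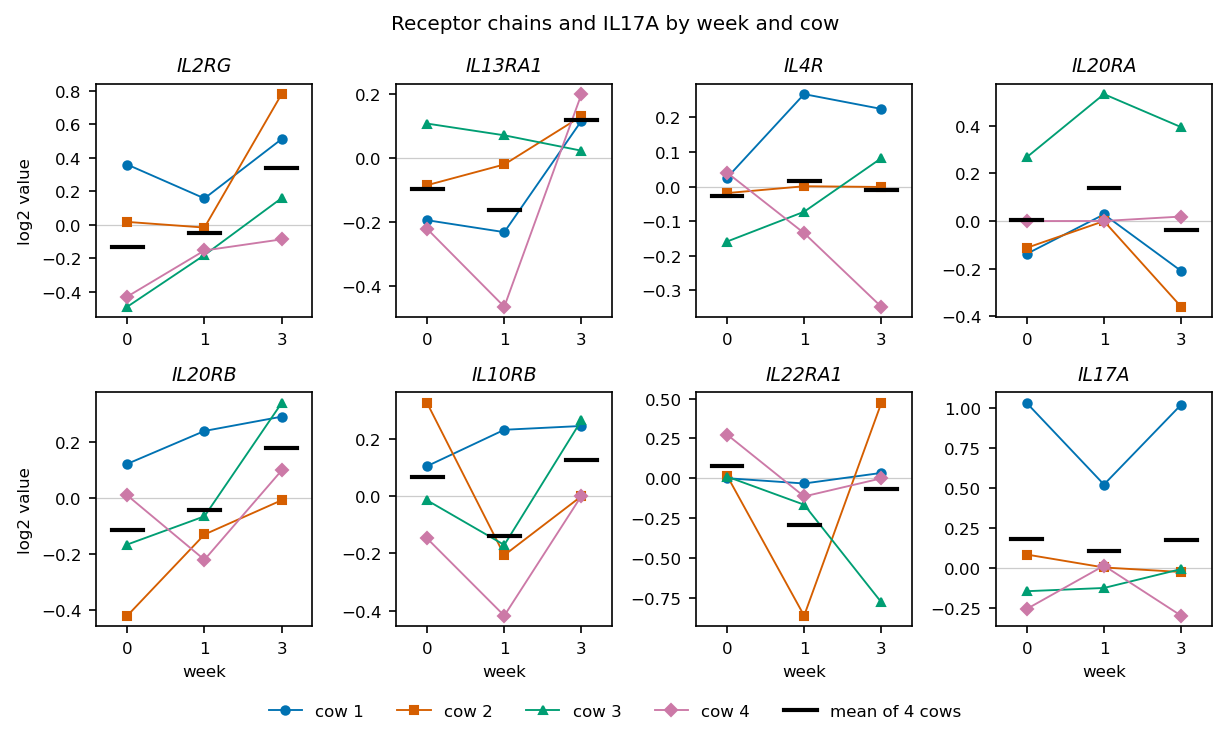
Log2 values of receptor chains and IL17A (vertical axes, 1 panel a gene with its own scale) at weeks 0, 1 and 3 (horizontal axes), with a line for each of the 4 cows and a bar at the mean of a week. IL2RG and IL20RB are higher at week 3 than at week 0 in each cow, while IL17A and IL20RA separate cow 1 and cow 3 from the others.

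IL6, its receptor chain IL6R and the interleukin 12 family genes IL12A, IL12B and IL12RB2 were among the 17 flat genes. IL23R, grouped with them by role, was not, and spanned 0.57 over the 12 arrays. IL6 differed by 0.08 ± 0.05 at week 1 and 0.05 ± 0.05 at week 3, and IL6R by 0.01 ± 0.03 at both, all against week 0. IL15 differed by 0.02 ± 0.05 and 0.03 ± 0.05 at weeks 1 and 3 against week 0. In the 19 genes for which no difference is given singly, week 3 differed from week 0 by -0.09 to 0.11.

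The direction of the differences was shared by most probe sets of the array. At week 3 against week 0, 33 of the 39 genes were higher and 6 lower, and over all named genes 5906 were higher and 3249 lower. Higher in all 4 cows were 22 genes, or 56.4%, against 36.3% of all probe sets, and 12 of these 22 were among the 17 flat genes. With each array centred on its median, the count was 8, or 20.5%, against 12.8% of all probe sets, and with quantile normalization 7, or 17.9%, against 9.1%. IL10RA, IL1A, IL1RN, IL20RB, IL2RG and IL33 were higher in all 4 cows under both scalings. At week 1 against week 0, 2 genes, IL1RAP and IL20RA, were higher in all 4 cows (6.91% of all probe sets), and at week 3 against week 1 they were IL10RB, IL1RN, IL20RB and IL2RG (5.12%).

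The share of the variation held by the cow and by the week was taken for each gene. With 4 cows and 3 weeks, the share of the cow is favoured even where neither differs. A larger share for the cow is therefore no sign of a difference between cows. The cow held a larger share of the variation than the week in 29 of the 39 genes, and the same was true of 75.4% of all named genes. The median share of the cow was 27.9% over the 39 genes and 28.6% over all named genes. In a limma F test between cows, 2 genes passed an adjusted p under 0.05, or 5.13%, against 1.79% of all probe sets. An unadjusted p under 0.05 was found in 8 (11.7% of all probe sets). Differences between cows add to the SD by which the probe set of each gene was chosen. The shares of all probe sets, not chosen so, are thus no like background here.

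IL17A, a T cell cytokine that acts on epithelia, stood at 1.03, 0.52 and 1.02 in cow 1 at weeks 0, 1 and 3. In the other 3 cows it lay between -0.30 and 0.09. The cow means were 0.86 in cow 1, 0.02 in cow 2, -0.09 in cow 3 and -0.18 in cow 4 (limma, adjusted p = 0.0308). The other 2 probe sets that name IL17A were not high in cow 1, where they lay between -0.07 and 0.00. With the mean of the 3 probe sets the adjusted p was 0.191. Between weeks IL17A, in a comparison given after its values were seen, differed by -0.01 ± 0.33 at week 3 against week 0. The other 2 probe sets differed by 0.23 and 0.01 there. The first of these had an unadjusted p of 0.048 in limma and of 0.022 with the cow as a block. No probe set of the array passed an adjusted p under 0.05 in that comparison.

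IL20RA was high in cow 3, at 0.27, 0.53 and 0.39 at weeks 0, 1 and 3, and lay between -0.36 and 0.03 in the other cows (limma, adjusted p = 0.0369). Both calls depended on the settings: with quantile normalization the adjusted p was 0.147 for IL17A and 0.0936 for IL20RA, and with the 3 arrays of high controls left out it was 0.153 and 0.275. Leaving out cow 1 gave 0.856 for IL17A, and leaving out cow 3 gave 0.790 for IL20RA. Leaving out a single array gave 0.0134 to 0.156 for IL17A and 0.0351 to 0.149 for IL20RA.

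Next by p were IL1R2, IL2RG and IL18. IL1R2 stood at 0.63, 0.46 and 0.46 in cow 2 at weeks 0, 1 and 3 and at most at 0.16 in the other cows (limma, adjusted p = 0.0736). IL2RG had means of 0.34 and 0.26 in cows 1 and 2, against -0.17 and -0.22 in cows 3 and 4 (adjusted p = 0.182). IL18 had a mean of -0.37 in cow 4 and of 0.01 to 0.15 in the other cows (adjusted p = 0.202).

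Of 69 other genes listed for the interleukin pathways, 44 were measured. They were 6 kinases and STATs, 8 feedback inhibitors, and 19 adaptors and NF-kappaB genes. To these come 3 genes that process interleukin 1 beta and 18, and 8 cytokine subunits and relatives with other names, receptor chains among them. Again 0 of the 44 passed an adjusted p under 0.05 in limma in any comparison of weeks. At week 3 against week 0, 36 of the 44 were higher, with a median difference of 0.06, and 3 had an unadjusted p under 0.05 (3.88% of all probe sets) and 4 with the cow as a block (6.12%). At week 3 against week 1, 29 were higher, with a median of 0.09, and 6 had an unadjusted p under 0.05 (4.88%) and 8 with the block (7.58%). At week 1 against week 0, 22 were higher and 22 lower, and 3 had an unadjusted p under 0.05, SOCS4 higher and TRAF3IP2 and OSMR lower (5.15%), and 5 with the block (7.61%).

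Of the 12 feedback inhibitors of cytokine receptors, 8 were measured, and 6 of them lay higher at week 3 than at week 0. Their median difference was 0.20. CISH, which is induced by STAT5 and restrains it, stood at -0.52, -0.31, -0.01 and -0.39 in cows 1 to 4 at week 0, at -0.13, -0.15, 0.18 and 0.04 at week 1, and at 0.01, 0.51, 0.53 and 0.31 at week 3. Each cow had its lowest value at week 0 and its highest at week 3. Weeks 0 and 3 did not overlap, as in 3.48% of all probe sets. The nearest arrays were week 0 of cow 3 and week 3 of cow 1, at -0.0057 and 0.0057. The difference was 0.64 ± 0.14 at week 3 against week 0 (limma, adjusted p = 0.665), and the adjusted p with the cow as a block was 0.158. SOCS2, a feedback inhibitor of growth hormone and cytokine receptors, differed by 0.78 ± 0.30 (adjusted p = 0.901). It was higher in cows 1 to 3 by 0.67 to 1.41, and -0.02 apart in cow 4. SOCS4 was at 0.79, 0.46, 0.51 and -0.16 in cows 1 to 4 at week 1, against -0.52, -0.74, -0.01 and -0.03 at week 0 (0.73 ± 0.23, limma, adjusted p = 0.763), and differed by 0.29 without the 3 arrays of high controls.

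The adaptors of the interleukin 1 and 17 receptors and the NF-kappaB genes, 19 of 24 measured, had a lower mean at week 1 in 13 genes, with a median difference of -0.13 from week 0. At week 3 against week 1, 17 of the 19 were higher, and the median was 0.19, while 3738 of all named genes were higher and 5417 lower. The 11 monocyte, macrophage and dendritic cell markers had a median difference of -0.33 at week 1 against week 0, 7 of them lower, and of 0.67 at week 3 against week 1. Of the 7 fibroblast markers, 7 were higher at week 3 against week 1, by a median of 0.34. An unadjusted p under 0.05 in limma was reached by 3 of the 7 (4.88% of all probe sets). The part of these cells in the values of the adaptors was not tested.

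TRAF3IP2, the adaptor of the interleukin 17 receptors, stood at 0.09, -0.50, -0.41 and -0.82 in cows 1 to 4 at week 1, against 0.16, -0.00, 0.12 and -0.01 at week 0. Each cow was lower, cow 1 by 0.07 and the others by 0.50 to 0.82 (-0.48 ± 0.16, limma, adjusted p = 0.763). It differed by 0.50 ± 0.16 at week 3 against week 1 (adjusted p = 0.773).

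MYD88, the adaptor of interleukin 1 and Toll-like receptors, stood at 0.09, 0.19, 0.36 and 0.05 in cows 1 to 4 at week 3, against 0.20, -0.27, -0.26 and -0.23 at week 1. Cow 1 was lower and the other 3 cows were higher (0.32 ± 0.11, limma, adjusted p = 0.854). TOLLIP, which dampens the same receptors, differed by 0.30 ± 0.10 (adjusted p = 0.788), with the same 3 cows higher. NFKBIZ, a nuclear regulator of NF-kappaB targets induced by interleukins 1 and 17, was higher in all 4 cows at week 3 than at week 0, by 0.16 to 0.53 (0.39 ± 0.15, adjusted p = 0.901). OSMR, a chain of the receptors for oncostatin M and IL31, differed by -0.47 ± 0.19 at week 1 against week 0 (adjusted p = 0.763), and 1 of its 4 probe sets had the opposite sign.

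**Figure D5:**
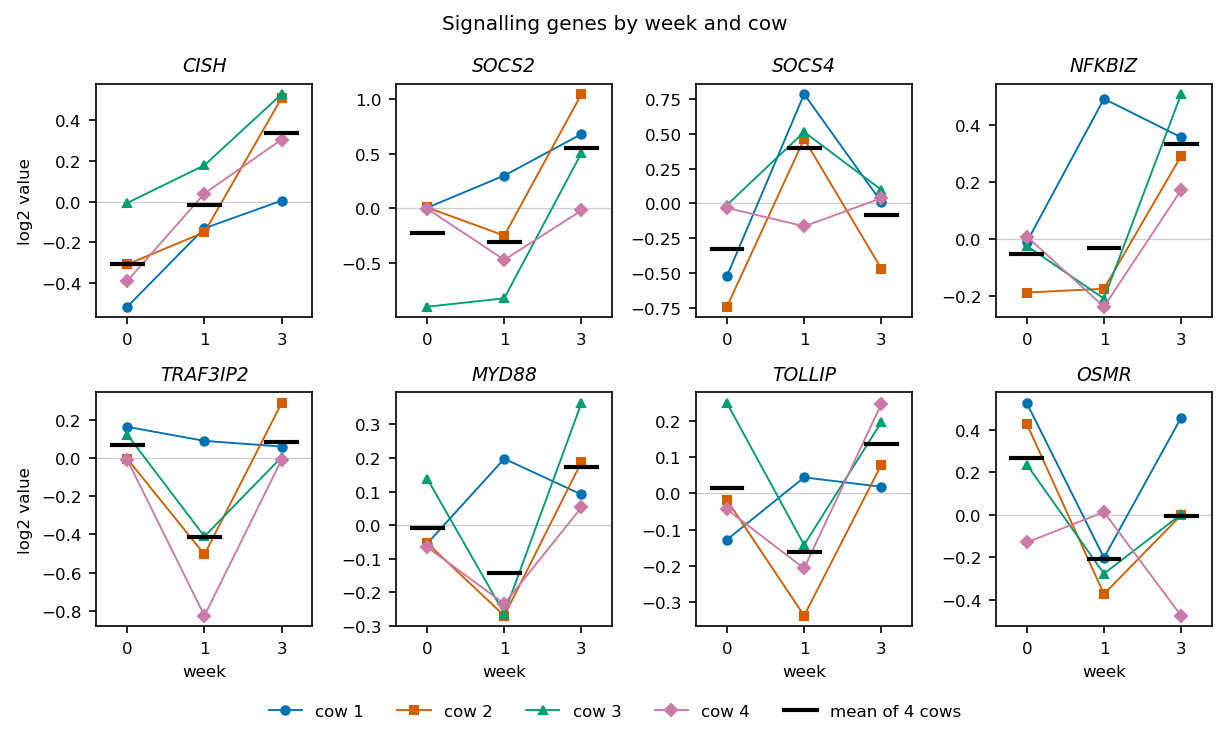
Log2 values of 8 of the listed pathway genes, among them the receptor chain OSMR (vertical axes, 1 panel a gene with its own scale). Weeks 0, 1 and 3 are on the horizontal axes, with a line for each of the 4 cows and a bar at the mean of a week. CISH is lowest at week 0 and highest at week 3 in each cow, and TRAF3IP2, MYD88 and TOLLIP have their lowest mean at week 1.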

How the data were processed

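RNA of 12 samples was labelled with biotin and hybridised to 1-colour arrays, per the labels' protocols. The deposited log2 values were made by the authors with GCRMA (which corrects Affymetrix probe intensities for background and normalizes them), per the submitters' processing notes (version not given in the sources used here). No base is stated for the authors' log values. They were taken as log2, since a natural log would turn the widest range of any probe set, 11.2, into a fold of 74399, more than the 65535 levels a 16-bit scanner can hold. They were deposited with a median of 0 in each probe set over the 12 arrays.

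All 24016 probe sets other than 112 controls were tested. Of these 13292 named 1 gene, 86 several and 10638 none. For 13263 of the first, the gene ID was in the gene table of the current assembly, and the symbol of all 39 genes was the current one. No coordinates are given.

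Weekly means were compared in 1 fit over all arrays with limma 3.58.1 in R 4.3.3 (lmFit, eBayes, two-sided) without a term for the cow, after the series' design text, and cows by an F test in a model of week and cow. P-values were adjusted over all probe sets with the Benjamini-Hochberg method, at 0.05. Deviations from the weekly means correlated at 0.303 to 0.690 between arrays of the same cow (12 pairs) and at -0.435 to 0.0662 between cows (36 pairs). The cow as a block was therefore fitted as well. Replicates are different animals, each sampled at every week. The fit was tested on simulated data.

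The genes named in each comparison were those with an unadjusted p under 0.05, up to 10 in each direction. IL1A, IL1B, IL1RN, IL1R1, IL1R2, IL1RAP, IL18, IL33, IL6, IL6R, IL10, IL15 and IL4R were named in every comparison of weeks. Named as well were the 5 of smallest p between cows and, in each comparison of weeks, up to 4 of the listed pathway genes, those of smallest p. Genes outside this rule whose differences are given singly were chosen after their values were seen, and are marked so. The 39 genes, the lists and the rules were chosen with earlier results of these data known. Figures were drawn with Python 3.11.15 and matplotlib 3.10.9.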

Additional observations from a re-analysis of the deposited data

Results flagged for a closer look

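Of 60 groups of 4 arrays, those of 20 named genes in each week, 6 held an array whose gap to the nearest of the others, divided by the range of the group, was above Dixon's critical value for 4 samples. Chance marks about 5% of such groups. Some of the 20 genes, IL22RA1 and IL20RA among them, were chosen after their values were seen. The 6 are therefore not to be set against that share. IL1B was at 1.07 in cow 3 at week 3, and at -0.05 to 0.04 in the other cows. IL1RN was at -0.29 in cow 3 at week 1, and at -0.01 to 0.03 in the others. IL1R1 was at 0.17 in cow 1 at week 0, and at -0.02 to 0.01 in the others. IL20RA was at 0.53 in cow 3 at week 1, and at -0.00 to 0.03 in the others. IL22RA1 was at 0.27 in cow 4 at week 0, with 0.00 to 0.02 in the others, and at -0.86 in cow 2 at week 1, with -0.17 to -0.03 in the others.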

How the results depend on the processing

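In the comparisons of weeks, 0 of the 39 genes had an adjusted p under 0.05 in limma under each alternative run other than array weights, which gave 21 for week 1 against week 0 (41.5% of all probe sets) and 16 over the 3 weeks (25.4%). The array of week 1 of cow 1 had a weight of 0.0618 in that fit, and the others 0.421 to 3.63. The unadjusted counts are given in the order of week 1 against week 0, week 3 against week 0, week 3 against week 1 and all 3 weeks. They were 1, 2, 2 and 2 as reported, and 2, 5, 6 and 5 with the cow as a fixed block. Array weights gave 21, 7, 18 and 24. In the pairs of weeks, 50.1%, 15% and 34.6% of all probe sets then had an unadjusted p under 0.05. Without the 3 arrays whose hybridization controls were high, the counts were 4, 4, 6 and 5. The shares of all probe sets in the pairs of weeks were then 17.7%, 5.04% and 12.4%. With the cow as a random block week 3 against week 0 gave 4 (4.14% of all probe sets). Quantile normalization gave 0 for week 1 against week 0 (4.44%) and 6 for week 3 against week 1 (5.36%). The mean of all probe sets of a gene gave 0, 1 and 1 for week 1 against week 0, week 3 against week 1 and all 3 weeks. Without the 40% of probe sets of lowest SD week 3 against week 0 gave 4 (5.39% of the probe sets kept). Leaving out 1 array or cow gave 0 to 20, 1 to 6, 1 to 6 and 0 to 13. The 20 and the 13 came without week 1 of cow 1, where 43.1% of all probe sets had an unadjusted p under 0.05 for week 1 against week 0. Without cow 1 that comparison gave 10 genes (20.4% of all probe sets), and without cow 2 it gave 0 (3.49%). The cause of these changes was not tested. Between cows the 2 genes at an adjusted p under 0.05 became 0 with quantile normalization and without the 3 arrays. They became 1 with centring and with the mean of probe sets, and 0 to 2 with 1 array or cow left out. Array weights gave 11, and 7363 of the 24016 probe sets passed in that fit. The 8 genes at an unadjusted p became 16 with array weights (46.3% of all probe sets) and 5 without the 3 arrays (9.47%). With 1 array or cow left out they became 5 to 8. The median difference over the 39 genes at week 3 against week 0, 0.03, was 0.0043 with quantile normalization, 0.074 without the lowest SD, 0.054 with array weights and 0.019 to 0.060 with 1 array or cow left out. That of week 3 against week 1 was 0.12 without the lowest SD.

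Under the alternatives there were 1511 values for 61 differences of the named genes between weeks. Of these values, 999 were other than the reported value and 71 of the 999 had the opposite sign. None of the 61 differences had passed the adjusted test as reported. With quantile normalization, week 1 against week 0 was -0.029 for IL1B, -0.016 for IL6R, -0.012 for IL15 and -0.0034 for IL4R, and week 3 against week 0 was -0.018 for IL6R, -0.0045 for IL15 and -0.021 for IL4R. With each array centred, week 1 against week 0 was -0.0040 for IL1B, -0.011 for IL6R and -0.0014 for IL15, and IL6R was -0.0047 at week 3 against week 0 and 0.0065 at week 3 against week 1. With array weights, week 1 against week 0 was -0.20 for IL18 and -0.079 for IL4R, and week 3 against week 1 was 0.13 for IL18, -0.045 for IL15 and 0.17 for IL4R. The mean of probe sets gave -0.016 for IL1RAP at week 3 against week 1. Without the 3 arrays, week 1 against week 0 was -0.18 for IL1A, 0.10 for IL1R2 and -0.0095 for IL4R, and week 3 against week 1 was -0.042 for IL15 and 0.058 for IL4R. With 1 array or cow left out, 17 of the 61 turned in at least 1 fit. For week 1 against week 0 the range was -0.15 to 0.32 for IL1A, -0.087 to 0.033 for IL1RN, -0.24 to 0.12 for IL1R2, -0.083 to 0.19 for IL18, -0.0070 to 0.049 for IL6R, -0.011 to 0.070 for IL15 and -0.041 to 0.12 for IL4R. For week 3 against week 0 it was -0.020 to 0.28 for IL1R2 and -0.061 to 0.15 for IL4R. For week 3 against week 1 it was -0.030 to 0.37 for IL1B, -0.031 to 0.14 for IL1RAP, -0.090 to 0.40 for IL33, -0.096 to 0.013 for IL6, -0.039 to 0.022 for IL6R, -0.045 to 0.024 for IL10, -0.045 to 0.035 for IL15 and -0.10 to 0.087 for IL4R. As every cow has an array in every week, the pairing by cow leaves each difference as it is and changes only its error.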
